A study of Mus musculus with 12 samples.

Results

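Trp53, which encodes the transcription factor p53, and 5 genes whose products restrain p53 or act on its negative regulators (Mdm2, Mdm4, Ppm1d, Usp7 and Ccng1) were followed in mouse embryos with an altered Eftud2 gene. They were picked by gene symbol, with earlier results of these data known, and are 6 of the 24421 gene symbols in the count table. All 6 were among the 14810 genes with enough counts to be tested. Eftud2 encodes a GTPase of the spliceosome, and the series models the human craniofacial condition MFDM and asks about Mdm2 splicing and p53 activity. RNA was sequenced from C57Bl/6 embryos, untreated, in 4 groups of 3 libraries: Eftud2+/- (heterozygous, the controls) and Eftud2-/- (homozygous), each at 2 stages, embryonic day 9.0 (E9.0) and 9.5 (E9.5). The controls therefore also carry 1 altered allele, and there was no wild-type group. The alteration was directed to neural crest cells, per the series' design text, and the labels give neither the Cre driver nor the number of embryos per library. Their tissue entries differ (neural crest cells, cranial nerve ganglia, heads of embryos). No marker of neural crest, cranial ganglia, neural tube, endothelium, erythroid cells or heart was at 0 in all libraries. Nor was any marker of trunk or yolk sac endoderm, so this alone does not show which tissues were present. The 5 neural tube markers summed to between 611 and 777 CPM (counts scaled to a common library size) in every library, against between 111 and 157 CPM for the 8 cranial ganglion markers. The libraries thus held RNA of several cell types, and fewer cells of a type and less RNA per cell cannot be told apart in them.

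p53 is made continuously and kept scarce, and stress lets it accumulate and switch on genes for cell cycle arrest, apoptosis and repair. MDM2 is the E3 ubiquitin ligase that marks p53 for degradation, and MDM4 is a related protein, without strong ligase activity of its own, that binds MDM2 and masks the activation domain of p53. USP7 removes ubiquitin from both MDM2 and p53, PPM1D (Wip1) is a phosphatase that reverses activating phosphorylation of p53 and of its upstream kinases, and cyclin G1, the product of Ccng1, guides a PP2A phosphatase to MDM2. Mdm2, Ccng1 and Ppm1d are themselves transcribed by p53, which closes negative feedback loops. Neural crest cells are known to be sensitive to p53, and its activation is a feature of several mouse models of craniofacial syndromes. Most control of p53 acts on the protein, which RNA counts do not show.

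The promoters of the known feedback genes are shown because 2 of them, Mdm2 and Ccng1, were the members whose levels differed between genotypes. RefSeq windows (build GRCm38.p6) from 250 bases before to 50 after each start were matched by symbol for all 6 genes. They were searched for the consensus of the p53 binding decamer, which is the same on both strands, without mismatches. Of the 32851 windows of 300 bases in the table, 2745 (8.36%) held at least 1 such decamer. One decamer was present in each of the Mdm2, Ccng1, Trp53 and Ppm1d windows, and these letters were not in the Usp7 window or either of the Mdm4 windows. The decamer is in capitals below, each sequence runs 5′ to 3′ on the strand of the gene, and none of the stretches shown overlaps an annotated exon.
Mdm2: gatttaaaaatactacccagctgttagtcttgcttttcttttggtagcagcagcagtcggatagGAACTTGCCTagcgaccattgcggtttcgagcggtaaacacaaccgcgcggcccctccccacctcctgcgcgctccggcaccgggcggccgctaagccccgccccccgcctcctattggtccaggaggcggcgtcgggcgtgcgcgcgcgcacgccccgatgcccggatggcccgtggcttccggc
Ccng1: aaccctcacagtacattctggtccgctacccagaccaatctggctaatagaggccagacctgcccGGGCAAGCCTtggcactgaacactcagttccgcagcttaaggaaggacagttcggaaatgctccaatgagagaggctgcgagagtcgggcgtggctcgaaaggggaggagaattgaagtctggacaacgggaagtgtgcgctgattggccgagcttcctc
Trp53: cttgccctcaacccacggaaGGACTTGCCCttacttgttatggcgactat
Ppm1d: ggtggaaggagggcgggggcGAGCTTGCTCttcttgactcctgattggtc
The Mdm2 stretch is chr10:117710759-117711008 (minus strand), and its decamer begins 186 bases before the start. The Ccng1 stretch is chr11:40755312-40755536 (minus strand), with the decamer 185 bases before the start. In Ccng1 the preceding letters, AGACCTGCCC, complete a full site of 20 bases with 1 mismatch, and only 29 of the 32851 windows (0.0883%) held a full site with at most 1 mismatch. The best full site had 5 mismatches in the Mdm2 window, 3 in the Trp53 window, 4 in the Ppm1d and Usp7 windows, and 3 and 6 in the Mdm4 windows, and 30.2% of all windows held one with at most 4. The Trp53 stretch is chr11:69580264-69580313 (plus strand, decamer 75 bases before the start) and the Ppm1d stretch chr11:85311102-85311151 (plus strand, 132 bases before). Full sites were searched only as 2 decamers with no spacer between them. Sequence outside the windows, such as introns further into each gene, was not searched, so sites there would be missed. These matches describe letters in the reference, and binding was not measured.

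In the GRCm38 annotation (GENCODE M21) Trp53 lies at chr11:69580359-69591873 (plus strand), Mdm2 at chr10:117688875-117710758 (minus), Mdm4 at chr1:132959484-133030561 (minus), Ppm1d at chr11:85311244-85347066 (plus), Usp7 at chr16:8689595-8792308 (minus) and Ccng1 at chr11:40748552-40755311 (minus). No exon of the 6 overlaps an exon of another annotated gene. Library totals ranged from 13914543 to 31172708 counts, and a member had between 373 and 10048 counts in a library. One library stood apart: in heterozygous E9.0 replicate 1 the ribosomal precursor row Rn45s took 37.4% of the counts, against 4.40% to 16.2% in the other 11. Libraries were therefore scaled with TMM factors, which centre the bulk of genes. Scaling by total counts alone moved the median genotype difference over all genes to 0.19 (log2) at E9.0, and all changes here are relative to that bulk. Eftud2 itself was lower in every homozygous library than in any heterozygous one of its stage, between 232 and 236 against between 275 and 302 CPM at E9.0 and between 221 and 226 against between 248 and 264 CPM at E9.5. It passed the test at E9.0 (log2 −0.29; edgeR adjusted p = 0.0193) and missed it at E9.5 (−0.19; 0.0906).

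Of the 6 genes, Ccng1 and Mdm2 rose in homozygous embryos at E9.0, by 2.70-fold and 1.34-fold, and none fell. At E9.5 Ccng1 was again higher, by 1.38-fold, and Mdm2 was at nearly the same level in both genotypes. Trp53, Mdm4, Ppm1d and Usp7 did not pass the test at either stage. Tests were edgeR quasi-likelihood tests over all 14810 genes, with p-values adjusted by the Benjamini-Hochberg method and a threshold of 0.05. The 2 of 6 members called at E9.0 compare with 0.587% of all tested genes, and the 1 of 6 at E9.5 with 1.89%. The E9.5 count was 0 of 6 whichever library of the stage was left out. Nothing in the labels says whether libraries came from separate litters, so the p-values measure the spread between these libraries.

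**Figure D1:**
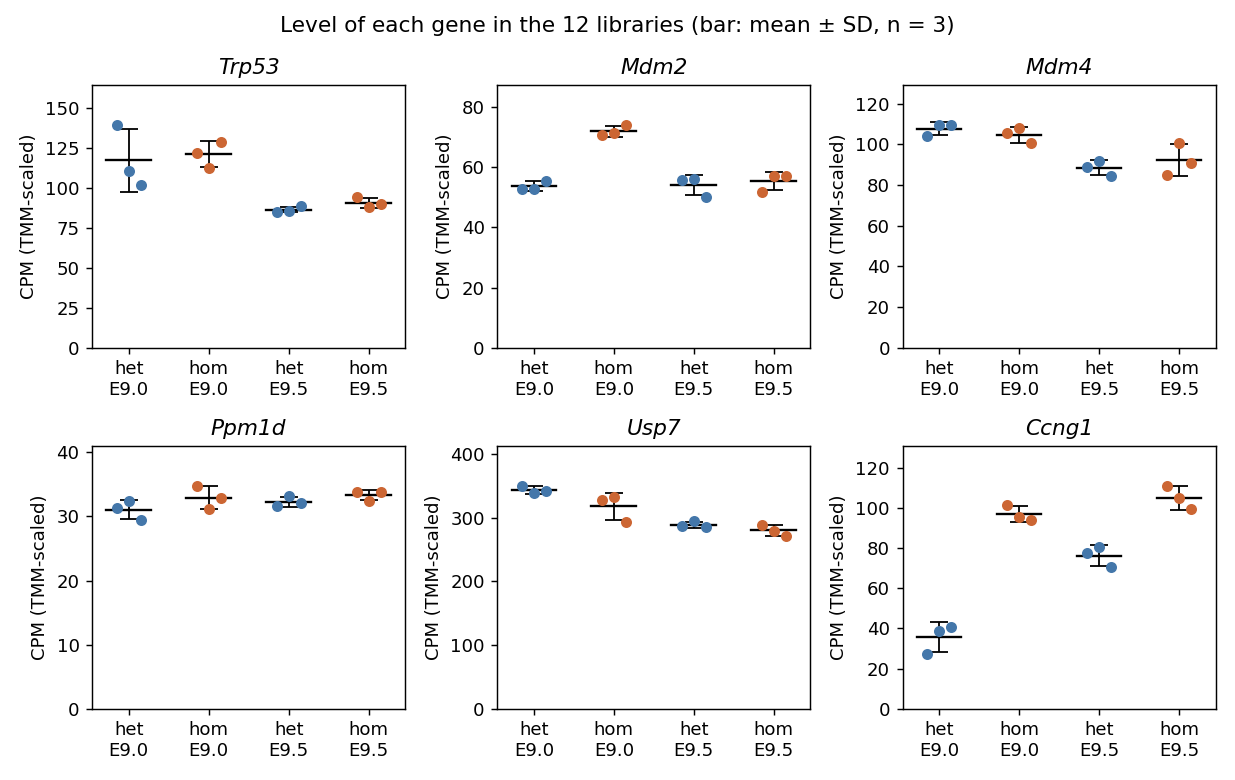
Level of each gene in CPM (TMM-scaled, linear axis from 0) in the 12 libraries, in heterozygous (blue) and homozygous (orange) groups at E9.0 and E9.5; points are libraries in replicate order and bars are mean ± SD (n = 3). Mdm2 stands higher in the homozygous E9.0 group alone, Ccng1 is lowest in the heterozygous E9.0 group, and Trp53, Mdm4 and Usp7 have lower means at E9.5.

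Among E9.0 libraries, Trp53 was at 139, 110.4 and 102 CPM in heterozygous (replicates 1 to 3) and at 122, 113 and 129 CPM in homozygous embryos. E9.5 values were 85.2, 85.8 and 88.4 CPM in heterozygous and 94.1, 87.7 and 89.7 CPM in homozygous embryos. The genotypes overlapped at both stages, and the highest value of all belonged to heterozygous E9.0 replicate 1, the library with the high Rn45s share. The log2 fold change of homozygous against heterozygous embryos was 0.05 ± 0.09 (SE, n = 3 each; 95% interval −0.14 to 0.24; edgeR adjusted p = 0.850) at E9.0. It was 0.07 ± 0.09 (−0.12 to 0.25; edgeR adjusted p = 0.842) at E9.5. Leaving out heterozygous E9.0 replicate 1 moved the E9.0 value to 0.19 (edgeR adjusted p = 0.240), and leaving out replicate 3 moved it to −0.04. A change of Trp53 RNA with genotype was thus not detected, and the intervals allow a rise of up to 0.25 on the log2 scale.

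Mdm2, the ligase gene, was at 52.6, 52.7 and 55.5 CPM in heterozygous and at 70.6, 71.2 and 73.9 CPM in homozygous E9.0 libraries. At the later stage, E9.5, it was at 55.9, 55.9 and 50.2 CPM in heterozygous and 51.8, 57.0 and 57.0 CPM in homozygous libraries. The homozygous E9.0 group was above all 9 other libraries, which lay close together. Mean levels at E9.0 were thus 53.6 ± 1.64 and 71.9 ± 1.80 CPM (SD, n = 3 each), and the log2 fold change was 0.42 ± 0.06 (SE; 95% interval 0.29 to 0.56; edgeR adjusted p = 0.00321, rank 26 of 14810 by p). The call held in all 6 fits that left out 1 library of the stage, in which the change was between 0.40 and 0.45. At E9.5 the change was 0.03 ± 0.06 (−0.10 to 0.16; edgeR adjusted p = 0.900). The difference between the stages, −0.39 ± 0.09 (−0.58 to −0.20), missed the threshold in edgeR (adjusted p = 0.180), although DESeq2 called it (adjusted p = 0.0259). Gene-level counts add all Mdm2 transcripts together, of which 9 are annotated, so they say nothing about which of them rose or how they were spliced.

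Mdm4, the ligase's partner, was at 104, 109 and 109 CPM in heterozygous and 106, 108 and 100.4 CPM in homozygous E9.0 libraries. Its E9.5 values were 89.1, 91.8 and 84.6 CPM in heterozygous and 85.0, 100.6 and 90.6 CPM in homozygous libraries. The genotypes overlapped at both stages. The log2 fold changes were −0.04 ± 0.06 at E9.0 (95% interval −0.18 to 0.09; edgeR adjusted p = 0.826) and 0.06 ± 0.06 at E9.5 (−0.08 to 0.19; edgeR adjusted p = 0.796). With scaling by total counts alone the E9.0 value was 0.15, below the shift of the median of all genes.

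Usp7, the deubiquitinase gene, was at 350.5, 339 and 342 CPM in heterozygous and 327, 334 and 293 CPM in homozygous E9.0 libraries. In E9.5 libraries it was at 287, 295 and 286 CPM in heterozygous and 289, 279 and 272 CPM in homozygous libraries. At E9.0 every homozygous library was below every heterozygous one, while at E9.5 the groups overlapped. The lowest E9.0 value was that of homozygous replicate 3. The E9.0 log2 fold change was −0.11 ± 0.06 (SE; 95% interval −0.23 to 0.01), which missed the threshold (edgeR adjusted p = 0.408) and was −0.058 without homozygous E9.0 replicate 3. At E9.5 it was −0.05 ± 0.06 (−0.17 to 0.07; edgeR adjusted p = 0.827), and −0.065 to −0.023 in fits that left out 1 library of the stage. Groups without overlap were common, with 3 of the 6 members (Mdm2, Usp7 and Ccng1) and 17.3% of all tested genes at E9.0, and with 1 of the 6 (Ccng1) and 20.9% at E9.5. When CPM values were permuted within stages (an exact permutation test, two-sided, 400 regroupings), the result was p = 0.015 for Usp7, with a mean difference of −17.4 CPM. That p was not adjusted for the number of genes and comparisons tested. The edgeR average over stages, −0.08 ± 0.04 (adjusted p = 0.334), did not pass, and total-count scaling turned it to 0.02.

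Ppm1d, the phosphatase gene, was at 31.3, 32.4 and 29.4 CPM in heterozygous and 34.8, 31.1 and 32.8 CPM in homozygous E9.0 libraries. The E9.5 libraries had 31.6, 33.1 and 32.2 CPM in heterozygous and 33.9, 32.4 and 33.8 CPM in homozygous libraries. All 4 groups overlapped their neighbours in level, and the 12 values lay between 29.4 and 34.8 CPM. The log2 fold changes were 0.08 ± 0.07 (95% interval −0.06 to 0.23; edgeR adjusted p = 0.637) at E9.0 and 0.05 ± 0.07 (−0.09 to 0.19; edgeR adjusted p = 0.857) at E9.5. A change as large as that of Ccng1 or Mdm2 at E9.0 lies outside these intervals. In fits that left out 1 library of the stage, Ppm1d was at 0.042 to 0.12 at E9.0. At E9.5 such fits gave 0.032 to 0.070, and none of these values was called.

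Ccng1, the cyclin G1 gene, was at 27.4, 39.0 and 40.9 CPM in heterozygous and at 102, 95.7 and 94.3 CPM in homozygous E9.0 libraries. Its later values, at E9.5, were 77.9, 80.6 and 70.7 CPM in heterozygous and 111, 105 and 99.5 CPM in homozygous libraries. The genotypes did not overlap at either stage, and the lowest value was that of heterozygous E9.0 replicate 1. Means were 35.7 ± 7.31 and 97.3 ± 4.05 CPM at E9.0 (SD, n = 3 each), and the log2 fold change was 1.43 ± 0.11 (SE; 95% interval 1.198 to 1.67; edgeR adjusted p = 9.2e-06). Ccng1 had the second smallest p of all tested genes at E9.0, and without heterozygous replicate 1 its change was 1.28. They were 76.4 ± 5.14 and 105 ± 5.88 CPM at E9.5 (SD, n = 3 each), and the log2 fold change was 0.46 ± 0.10 (0.24 to 0.68; edgeR adjusted p = 0.0312, rank 193). The E9.5 call was lost in all 6 fits that left out 1 library of the stage, with changes of 0.41 to 0.51 and edgeR adjusted p from 0.0618 to 0.114. It was also lost with no filter on low counts (edgeR adjusted p = 0.0573) and with scaling by total counts alone (0.435). A block on the replicate number ended it as well (edgeR adjusted p = 0.0563). The genotype effect was smaller at E9.5 than at E9.0 by 0.97 ± 0.15 on the log2 scale (a difference of −0.97, 95% interval −1.29 to −0.65; edgeR adjusted p = 0.0213). Ccng1 was the 1 member of 6 called for this difference, against 0.0675% of all tested genes. No filter (edgeR adjusted p = 0.0559), total counts alone (0.0977) and a block on the replicate number (0.0696) each ended this call. It was also lost in 8 of 12 fits that left out 1 library, with values of −1.08 to −0.82 and edgeR adjusted p up to 0.112. The 8 libraries were all 6 homozygous ones, heterozygous E9.0 replicate 2 and heterozygous E9.5 replicate 1.

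**Figure D2:**
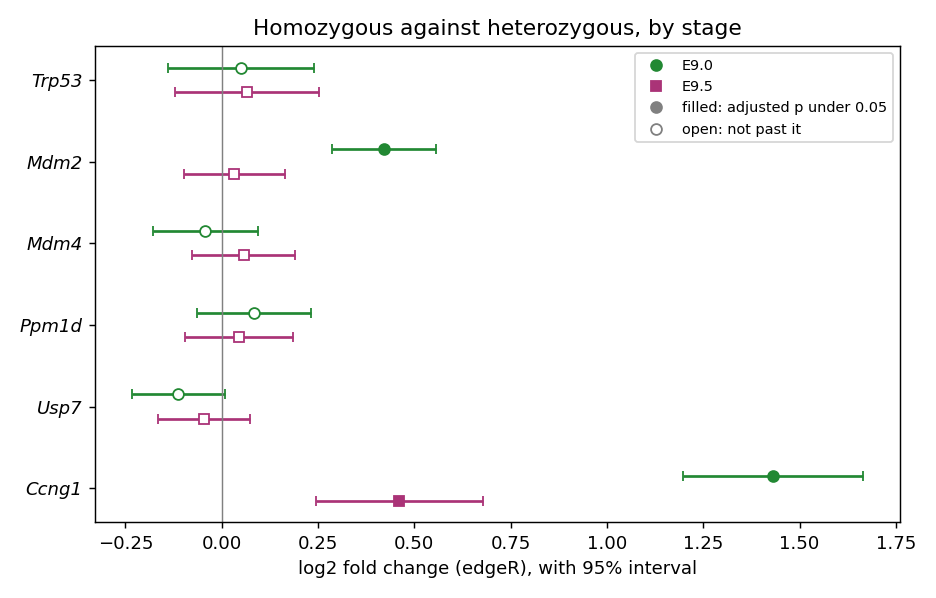
Log2 fold change (edgeR) of homozygous against heterozygous embryos for each gene, at E9.0 (circles) and E9.5 (squares), with 95% intervals; filled symbols passed the adjusted p threshold of 0.05. Ccng1 (1.43 and 0.46) and, at E9.0, Mdm2 (0.42) lie to the right of 0, and the intervals of the other 4 genes include 0 at both stages.

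Averaged over both stages, Ccng1 rose by 0.95 ± 0.07 (log2, SE; edgeR adjusted p = 9.5e-06) and Mdm2 by 0.23 ± 0.04 (edgeR adjusted p = 0.0094), and the other 4 members did not pass. Scaling by total counts alone ended the Mdm2 call (0.32; edgeR adjusted p = 0.101). The 2 of 6 compare with 2.96% of all tested genes. The exact permutation test within stages gave p = 0.005 for Ccng1, the smallest that 400 regroupings allow, and p = 0.025 for Mdm2. The same exact test gave p = 0.515 for Trp53, 0.93 for Mdm4 and 0.07 for Ppm1d. None of these exact p-values of levels was adjusted. Within 1 stage the 20 regroupings allow no p below 0.1, which Mdm2 and Usp7 reached at E9.0 and Ccng1 at both stages.

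Ordered by mean level, Ccng1 ran from heterozygous E9.0 through heterozygous E9.5 and homozygous E9.0 to homozygous E9.5, and only the last 2 of these groups overlapped. For Mdm2 the 3 lower groups overlapped in turn, and homozygous E9.0 stood above them. For Trp53 both E9.5 groups were below both E9.0 groups without overlap, and at each stage the genotypes overlapped. Usp7 had the same order of stages, but heterozygous E9.5 overlapped homozygous E9.0, and heterozygous E9.0 stood apart at the top. Neighbouring groups of Mdm4 and of Ppm1d all overlapped. Per kilobase of annotated exon, which allows levels of different genes to be set side by side, Usp7 was the most abundant in each group (group means of 36.1 to 44.3 CPM per kb), followed at E9.0 by Trp53 (29.0 and 29.9). At E9.5 Ccng1 was at 21.8 in heterozygous and 29.96 CPM per kb in homozygous embryos, against 21.4 and 22.4 for Trp53. At E9.0 Ccng1 was at 10.2 and 27.7 CPM per kb in heterozygous and homozygous embryos. Group means were 10.5 to 14.1 for Mdm2, 9.78 to 10.5 for Ppm1d and 5.98 to 7.28 CPM per kb for Mdm4, so that in heterozygous E9.0 embryos Ccng1, Mdm2 and Ppm1d lay close together. These levels depend on the annotated length, which for Mdm4 is 14.8 kb over 14 transcripts.

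Between stages, Trp53, Mdm4 and Usp7 were lower at E9.5 in both genotypes, while Ccng1 rose in heterozygous and Mdm2 fell in homozygous embryos. Trp53 changed by −0.44 ± 0.09 in heterozygous (log2, E9.5 against E9.0, SE; edgeR adjusted p = 0.00137) and by −0.42 ± 0.09 in homozygous embryos (edgeR adjusted p = 0.00179). Mdm4 changed by −0.28 ± 0.06 (edgeR adjusted p = 0.00246) and −0.18 ± 0.06 (0.0334), and Usp7 by −0.25 ± 0.06 (0.00276) and −0.18 ± 0.06 (0.0194). Ppm1d, at 0.06 ± 0.07 and 0.02 ± 0.07, passed in neither genotype (edgeR adjusted p = 0.534 and 0.843). Ccng1 rose 2.12-fold in heterozygous embryos (log2 1.08 ± 0.11; edgeR adjusted p = 3.4e-06) and was at 0.11 ± 0.10 in homozygous ones (edgeR adjusted p = 0.418). Mdm2 was at 0.01 ± 0.06 in heterozygous embryos (edgeR adjusted p = 0.927) and fell by 0.38 ± 0.06 in homozygous ones (edgeR adjusted p = 2.1e-04). These stage effects use the same libraries as the genotype effects, so the test of whether a course differed between the genotypes is the difference between stages given above, which edgeR called for Ccng1 (adjusted p = 0.0213) and not for Mdm2 (0.180).

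**Figure D3:**
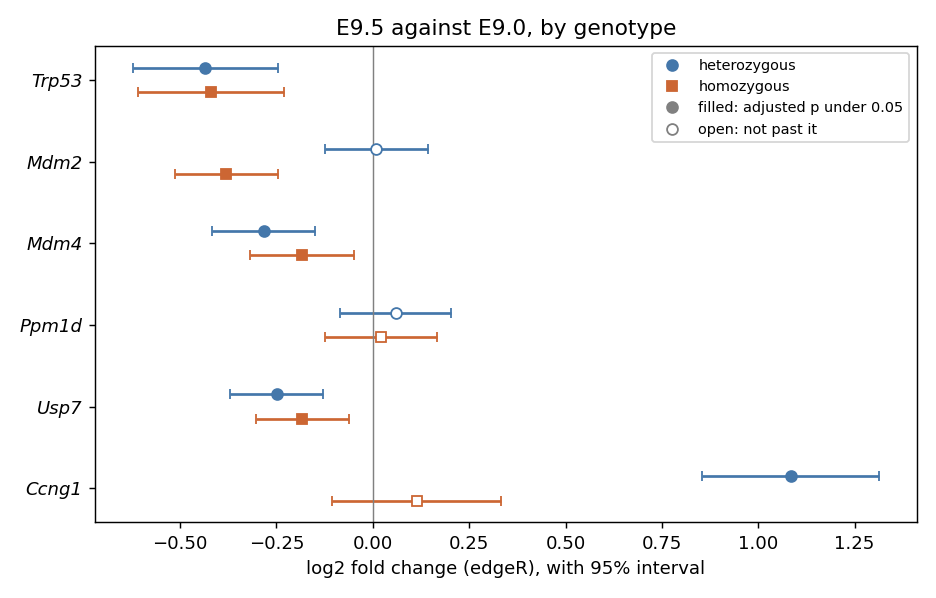
Log2 fold change (edgeR) of E9.5 against E9.0 for each gene in heterozygous (circles) and homozygous (squares) embryos, with 95% intervals; filled symbols passed the adjusted p threshold of 0.05. Trp53, Mdm4 and Usp7 lie to the left of 0 in both genotypes, Mdm2 in the homozygous embryos alone, and Ccng1 to the right in the heterozygous embryos (1.08).

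Stage calls were frequent: 4 of 6 members in each genotype, against 35.2% of all tested genes in heterozygous and 35.4% in homozygous embryos. The homozygous calls of Mdm4 and Usp7 were each lost in 4 of 6 fits that left out 1 library, and with total counts without the Rn45s row as the scaling (edgeR adjusted p = 0.208 and 0.128). Mdm4 was lost without homozygous E9.0 replicate 1 or 2 or homozygous E9.5 replicate 1 or 3, and Usp7 without homozygous E9.0 replicate 1 or 2 or homozygous E9.5 replicate 2 or 3. Total counts alone moved the median of all genes to 0.38 in heterozygous and to 0.18 in homozygous embryos. The same scaling set Mdm4 and Usp7 to 0.08 and 0.12 in heterozygous embryos. It ended the Trp53 calls (edgeR adjusted p = 0.816 and 0.168) and the homozygous Mdm2 call (0.326). Close to that median of 0.38, it also called Ppm1d (0.43; edgeR adjusted p = 0.0165) and Mdm2 (0.38; 0.0341) in heterozygous embryos. The homozygous Mdm4 call was lost as well when only the groups compared were fitted (edgeR adjusted p = 0.0532), and those of Mdm4 and Usp7 with no filter (0.139 and 0.118). Cell type markers moved with stage: the 4 heart markers summed to between 17.4 and 158 CPM at E9.0 and to between 833 and 1349.8 CPM at E9.5. The 5 erythroid markers summed to between 531 and 1160.3 CPM at E9.0 and to between 2769 and 5163 CPM at E9.5. The 7 neural crest markers summed to between 296 and 372 CPM at E9.0 and to between 205 and 279 CPM at E9.5. Their part in the stage effects was not tested.

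Between genotypes, the neural crest markers summed to between 353 and 372 CPM in heterozygous and to between 296 and 326 CPM in homozygous embryos at E9.0, where 1 of the 7 was called lower (median log2 fold change −0.19). At E9.5 the sums overlapped, at 217 to 279 and 205 to 254 CPM, but 4 of the 7 were called lower (median −0.65). The 6 facial mesenchyme markers summed to between 130 and 143 against between 117 and 134 CPM at E9.0, with none called, and to between 152 and 232 against between 124 and 145 CPM at E9.5, where 3 of the 6 were called lower (median −0.85). The 6 endothelial markers summed to between 199 and 219.7 CPM in heterozygous and to between 241 and 249.98 CPM in homozygous embryos at E9.0, and to between 137 and 195 against between 256 and 282 CPM at E9.5. None of the 6 was called at E9.0 and 5 were called higher at E9.5 (median 0.63). The sum of the 8 ganglion markers was 127 to 133 in homozygous against 111 to 118 CPM in heterozygous embryos at E9.0, with none called, and 152 to 157 against 130.4 to 139.7 CPM at E9.5, with 1 called higher and 1 lower. The sums of the 4 heart markers overlapped at both stages, with 833 to 1098 against 1041 to 1349.8 CPM at E9.5. None of the 4 was called (medians 0.46 at E9.0 and 0.34 at E9.5). The yolk sac endoderm markers summed to 7.61 CPM or less except in 1 heterozygous E9.5 library at 26.3 CPM, and of the 2 tested none was called. No neural tube, erythroid or trunk marker was called between genotypes at either stage. Only 1 of the 5 trunk markers was tested (log2 −0.0049 at E9.0 and 1.15 at E9.5). The part of these differences in the rise of Ccng1 and Mdm2 was not tested.

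Ratios of 2 members within a library do not depend on how the libraries are scaled, so 5 were compared. At E9.0 the log2 ratio of Mdm2 to Mdm4 was −0.99, −1.05 and −0.98 in heterozygous and −0.58, −0.60 and −0.44 in homozygous libraries. The groups did not overlap, and the homozygous mean was higher by 0.47 (means −1.01 ± 0.04 and −0.54 ± 0.09, SD, n = 3 each; exact two-sided permutation p = 0.1, the smallest possible; 0.25 adjusted over the 5 ratios). At E9.5 the same ratio differed by −0.02 (exact p = 0.9). The ratio of Mdm2 to Trp53 was higher by 0.37 in homozygous E9.0 embryos, again without overlap (means −1.12 ± 0.27 and −0.75 ± 0.08, SD, n = 3 each; exact permutation p = 0.1; adjusted 0.25), and differed by −0.03 at E9.5 (exact p = 0.5). Without heterozygous E9.0 replicate 1, the library with the high Rn45s share, the E9.0 difference was 0.22. Usp7 to Trp53 was lower by 0.11 at E9.5 without overlap (a difference of −0.11; exact permutation p = 0.1; adjusted 0.5). Over both stages no ratio passed after adjustment, the smallest adjusted p being 0.288 for Mdm2 to Mdm4 (0.22; exact p = 0.06) and for Usp7 to Trp53 (−0.14; exact p = 0.115). The latter was −0.091 without homozygous E9.0 replicate 3.

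**Figure D4:**
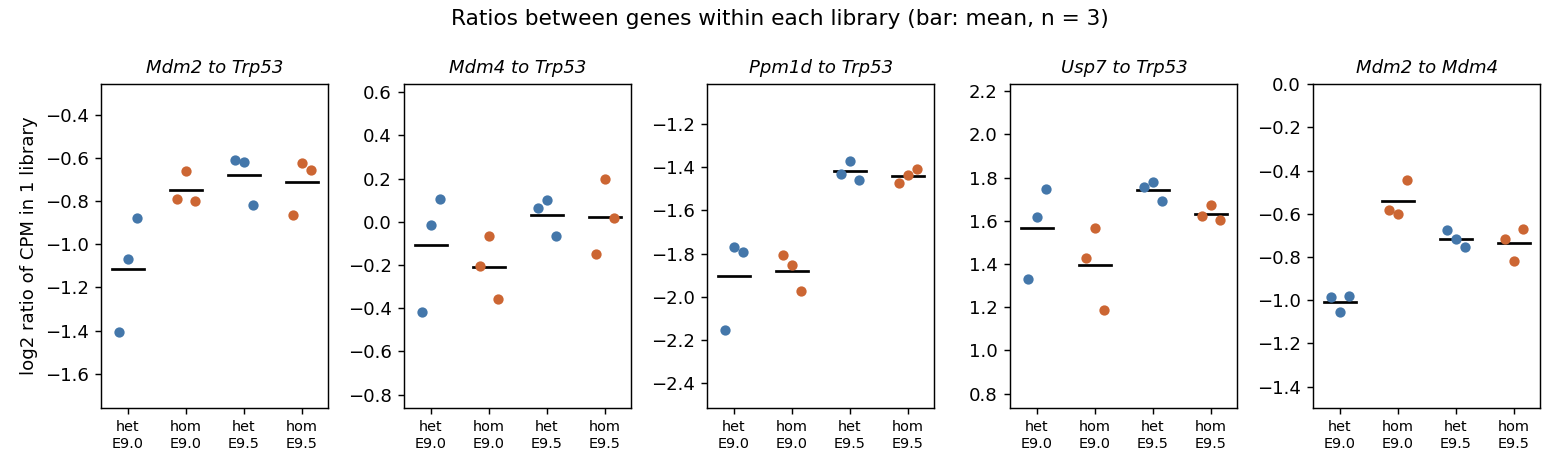
Log2 ratio of the CPM of 2 genes within each library, for 5 gene pairs, in heterozygous (blue) and homozygous (orange) groups; points are libraries, bars are group means (n = 3), and the panels have different ranges of equal height. At E9.0 Mdm2 to Mdm4 does not overlap between genotypes (means −1.01 and −0.54), and the 3 pairs with Trp53 other than Mdm2 overlap there.

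The other genes around p53 were described from 6 lists of genes with known roles, drawn up with earlier results of these data known, so that the targets' count below is not independent evidence of their direction. Among 35 known transcriptional targets of p53, not counting the 6 members, 34 were tested. At E9.0, 17 of them rose and none fell, against 0.432% of all tested genes that rose, and their median log2 fold change was 0.60 against −0.00 for all genes. At E9.5, 6 rose and none fell (1.19% of all genes rose), with a median of 0.18. The 4 with the smallest adjusted p at E9.0 were Eda2r, a receptor of the TNF receptor family, Ddit4l, an inhibitor of mTOR signalling, Ak1, an adenylate kinase, and Phlda3, which restrains Akt. Eda2r was at 7.15 ± 1.79 and 28.9 ± 1.88 CPM (SD, n = 3 each; log2 1.99 ± 0.15, edgeR adjusted p = 9.2e-06), and Ddit4l at 2.57 ± 0.260 and 9.60 ± 1.73 CPM (1.91 ± 0.16, 9.2e-06). Ak1 was at 11.8 ± 0.854 and 24.4 ± 3.81 CPM (1.06 ± 0.11, 6.3e-05) and Phlda3 at 4.82 ± 0.998 and 26.1 ± 8.32 CPM (2.41 ± 0.21, 8.5e-05). By log2 fold change at E9.0, and among these 4 alone, Ccng1 (1.43) was below Phlda3, Eda2r and Ddit4l and above Ak1. Mdm2 (0.42) was below the list's median. The 4 were picked by adjusted p and not by size of change. Cdkn1a, also on the list, was at 2.92 ± 0.613 CPM in heterozygous and 20.9 ± 9.20 CPM in homozygous E9.0 embryos (SD, n = 3 each). At E9.5 the 4 were Zfp365, a zinc finger gene (0.84 ± 0.13; edgeR adjusted p = 0.00357), Ddit4l (0.83 ± 0.14; 0.00636), Eda2r (0.81 ± 0.14; 0.00703) and Ak1 (0.51 ± 0.09; 0.00957), of which Ak1 was lost with scaling by total counts alone (0.12). The smaller effect at E9.5 passed the threshold for 1 target, Phlda3 (a difference of −1.93 ± 0.28; edgeR adjusted p = 0.0213), a call lost in 6 of 12 fits that left out 1 library, those without heterozygous E9.0 replicate 1 or 2, heterozygous E9.5 replicate 1 or any homozygous E9.5 library (edgeR adjusted p up to 0.115), and with no filter (0.0672).

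**Figure D5:**
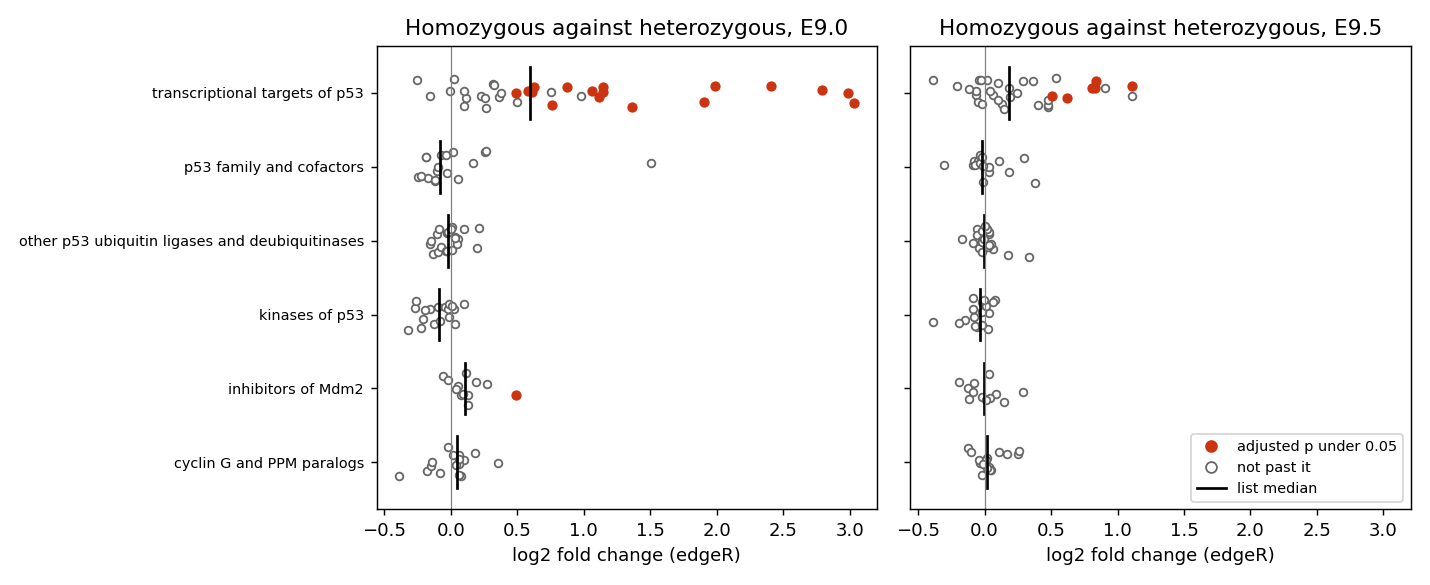
Log2 fold change (edgeR) of homozygous against heterozygous embryos at E9.0 (left) and E9.5 (right) for the tested genes of the 6 lists; points are genes spread vertically for legibility, filled points passed the adjusted p threshold of 0.05, and black bars are list medians. The transcriptional targets lie to the right (17 of 34 called at E9.0, 6 at E9.5), and the medians of the other 5 lists lie between −0.09 and 0.10.

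Calls were few among the genes that act on p53 and MDM2 protein, as they were among all tested genes (0.587% at E9.0, 1.89% at E9.5 and 2.96% on average). At these shares a list of this size is close to the background with 0 or 1 called. None of 21 other p53 ubiquitin ligases and deubiquitinases and none of 18 kinases of p53 was called at either stage or on average, with E9.0 medians of −0.02 and −0.09 against −0.00 for all genes. Of 14 inhibitors of Mdm2, 12 were tested. Their log2 fold changes were above 0 for 10 and below 0 for 2 at E9.0 (median 0.10). At E9.5 they were above 0 for 6 and below 0 for 6 (median −0.0044). At E9.0, 1 inhibitor was called. That was Zmat3, better known as an RNA-binding zinc finger protein and itself a p53 target, which is also counted among the targets. It was at 72.0 ± 2.04 and 102 ± 15.1 CPM (SD, n = 3 each; log2 0.49 ± 0.09, edgeR adjusted p = 0.0193), and the call was lost in 5 of 6 fits that left out 1 library, all but that without homozygous replicate 2 (edgeR adjusted p up to 0.126). Cdkn2a, which encodes the MDM2 inhibitor Arf, and Rpl26 had too few counts to be tested. Rpl26 differed in this from the list's other ribosomal protein genes, such as Rpl5 (group means of 741 to 909 CPM). Why its counts were few was not tested. None of 18 p53 relatives and cofactors was called at either stage; on average Ppp1r13b, the gene of a p53-binding cofactor of apoptosis, was higher by 0.32 ± 0.08 (edgeR adjusted p = 0.0425; lost in 8 of 12 fits that left out 1 library, with adjusted p up to 0.116, and kept without heterozygous E9.0 replicate 1 or 3, homozygous E9.0 replicate 2 or heterozygous E9.5 replicate 1). None of 16 genes related to the members, which were Ccng2 and Ccni, PPM phosphatases, USP proteases and the cyclin G-associated kinase gene Gak (a partner, not a paralog), was called at either stage, so the rise of Ccng1 was not accompanied by a called rise of Ccng2. On average the phosphatase gene Ppm1l was lower by 0.25 (−0.25 ± 0.06; edgeR adjusted p = 0.0281; lost in 9 of 12 such fits, with adjusted p up to 0.0771, and kept without replicate 3 of heterozygous E9.0, replicate 1 of homozygous E9.0 or replicate 1 of heterozygous E9.5).

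For each member, the 3 genes with the most similar course over the 12 libraries were found by Pearson's r of log2 CPM among 12028 other tested genes. The values are descriptions, since the libraries share 4 group means and the same scaling. For Ccng1 they were Trp53inp1 (r = 0.96), Tspyl5 (0.94) and Slc19a2 (0.94). Trp53inp1 is a p53 target on the list above. Having been picked for following Ccng1, they share its pattern by choice: at E9.0 their log2 genotype differences were 1.36, 0.40 and 1.75 (edgeR adjusted p = 1.4e-04, 0.112 and 2.5e-05). For Mdm2 they were Klhdc7a (0.96), Prpf3 (0.95) and Tef (0.94). Prpf3 encodes a spliceosome protein of the U4/U6 particle. The E9.0 differences of these 3, picked in the same way, were 1.54, 0.56 and 0.37 (edgeR adjusted p = 2.9e-04, 3.6e-05 and 0.0636), and none of the 6 genes was called at E9.5. For Trp53 they were C330006A16Rik, Pelp1 and Ddx54 (0.98 each), and for Usp7 they were led by Mre11a (0.98). None of these genes of Trp53 and Usp7 was called between genotypes, and all had lower means at E9.5. Mdm4 was followed most closely by Kit (0.94), and Ppm1d, with little variation of its own, by Xpa (0.86).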

How the data were processed

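The authors deposited 1 table of raw counts, whole reads per gene symbol in 12 libraries, and every column matched a sample. The submitters' processing notes name cutadapt, STAR, featureCounts and MultiQC and the build mm10; the annotation and strand setting are not given in the sources used here, so antisense reads may be included. Genes were kept with edgeR's filterByExpr (14810 of 24421), scaled with TMM and tested with edgeR 4.0.16 (R 4.3.3) by quasi-likelihood in 1 model with 4 group means; p-values were adjusted over all genes, two-sided, with a threshold of 0.05. SEs are the log2 fold change over the square root of F. CPM are counts relative to TMM-scaled library sizes. Named genes are the 6 members, Eftud2, at most 4 called genes of smallest adjusted p per list and contrast, and 3 similar genes per member. The similar genes had a mean count of at least 50 (prior count 2). Cdkn1a is given for its level alone. Members and lists were chosen with earlier results of these data known. Aliases Rfwd2 and Setd8 stood for Cop1 and Kmt5a. The list labelled cyclin G and PPM paralogs also holds Gak and 3 USP genes. Tests were checked on simulated data, but no result of that check is given here. Alternatives were other scalings, filters and designs, limma-voom (limma 3.58.1), DESeq2 1.42.0 and each library left out. A correction for GC content and length was chosen after seeing the data.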

Additional observations from a re-analysis of the deposited data

Results flagged for a closer look

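The genotype effect on Ccng1 differed between the stages. On the log2 scale it fell from 1.43 to 0.46 between E9.0 and E9.5, a difference of −0.97 that passed the threshold in a direct test (edgeR adjusted p = 0.0213) but not in 8 of 12 fits that left out 1 library (adjusted p up to 0.112), nor with total counts only (0.0977), no filter (0.0559) or the replicate block (0.0696). All 3 homozygous libraries were higher than all 3 heterozygous ones at both stages. The homozygous group means were 97.3 and 105 CPM at E9.0 and E9.5, and the heterozygous means 35.7 and 76.4 CPM. No cause of the difference was tested.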

How the results depend on the processing

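The E9.0 rises of Mdm2 and Ccng1 kept their direction and passed the threshold under all 12 alternatives and in all 6 fits that left out 1 library of the stage (log2 0.40 to 0.61 and 1.28 to 1.60). The E9.5 rise of Ccng1 and its difference between stages kept their direction in every fit but not their call: the number of members called fell from 1 to 0 for both with total counts only, with no filter and with the replicate block. Where no value above shows it, the cause of a change was not tested.

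Total counts only gave 123 calls at E9.5 against 280, and 47.2% of them were higher against 62.9%; at E9.0 the share of higher calls was 96.2% against 73.6%, with total counts without Rn45s 86.7%, with no filter 61.7% and with the GC content and length correction 60.7%, and on average over stages 84.7% against 61.5%. With total counts only, 1 member was called on average, 0 genes of the paralog list on average, 4 targets for the difference between stages, 3325 genes for stage in homozygous embryos and 0 members there. The same scaling turned several members' values: Mdm4 0.15 and Usp7 0.088 at E9.0, Usp7 0.018 on average, Mdm4 and Usp7 0.083 and 0.12 for stage in heterozygous embryos, and Trp53 −0.21, Mdm4 −0.098 and Usp7 −0.14 for the difference between stages. It also called Ppm1d and Mdm2 for stage in heterozygous embryos (0.43 and 0.38). Of the values that turned, only the stage values of Mdm4 and Usp7 had passed the threshold. RLE factors, upper quartile factors and total counts without Rn45s each gave 2 targets for the difference between stages, and the last left 2 members for stage in homozygous embryos. Values near 0 changed sign: Mdm2 for stage in heterozygous embryos with RLE (−0.0018) and DESeq2 (−0.0019), Trp53 for the difference between stages with upper quartile factors (−0.0082), total counts without Rn45s (−0.018) and limma-voom (−0.00016), and Mdm4 with the GC content and length correction at E9.0 (0.031) and with no filter on average (−0.0028). No filter also called 1 paralog at E9.0 and left 2 members for stage in homozygous embryos. Limma-voom gave 51 calls at E9.0 against 87 and 5 for the difference between stages against 10, with 0 Mdm2 inhibitors at E9.0 and 0 relatives and cofactors on average. DESeq2 gave 216 calls at E9.0, 448 at E9.5 and 76 for the difference, with 1 paralog at E9.0, 1 relative or cofactor at E9.5 and 1 kinase on average, and, for the difference, 2 members, 1 Mdm2 inhibitor and 5 targets. Fitting only the groups compared gave 0 Mdm2 inhibitors at E9.0, 1 at E9.5 and 10 targets at E9.5, and ended the stage call of Mdm4 in homozygous embryos. The correction for GC content and length gave 211 calls at E9.0, 686 on average against 439 and 21 for the difference, with 2 Mdm2 inhibitors at E9.0 and on average, 1 paralog at E9.0, 1 relative or cofactor at E9.5, 2 kinases on average and 3 targets for the difference.

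With the replicate number as a block, Ccng1 had an adjusted p of 0.0563 at E9.5 and 0.0696 for the difference between stages, and 0 Mdm2 inhibitors were called at E9.0. Deviations of same-numbered libraries correlated at 0.11, 0.03 and 0.03 at E9.0 and 0.05, 0.03 and 0.07 at E9.5. Those of differently numbered libraries of a stage ran from −0.20 to 0.17, and not every library correlated best with its own number. With 3 libraries a group, these values do not decide whether the numbers pair the libraries.

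Leaving out each library in turn gave 38 to 86 calls at E9.0, 133 to 252 at E9.5, 246 to 411 on average and 1 to 16 for the difference between stages. Members called were 0 at E9.5 in each such fit, 0 to 1 for the difference and 2 to 4 for stage in homozygous embryos. Calls ranged from 0 to 1 for Mdm2 inhibitors at E9.0 and for paralogs, kinases and relatives with cofactors on average, and from 0 to 3 targets for the difference. The E9.0 log2 ratio of Ppm1d to Trp53, 0.026, ranged from −0.099 to 0.094, the lower value without heterozygous E9.0 replicate 1. Members' log2 changes that changed sign, none of them called, were Trp53 at E9.0 (−0.044 to 0.19) and for the difference (−0.12 to 0.11), Mdm2 at E9.5 (−0.012 to 0.082) and for stage in heterozygous embryos (−0.016 to 0.059), Mdm4 at E9.5 (−0.0078 to 0.12) and on average (−0.025 to 0.037), and Ppm1d for the difference (−0.074 to 0.0039) and for stage in homozygous embryos (−0.015 to 0.062). Ratios, none of which passed, also crossed 0: Mdm4 to Trp53 at E9.0 (−0.25 to 0.0064) and E9.5 (−0.099 to 0.073), Mdm2 to Mdm4 at E9.5 (−0.053 to 0.022), Mdm2 to Trp53 at E9.5 (−0.099 to 0.043), and Ppm1d to Trp53 at E9.5 (−0.039 to 0.0047) and on average (−0.060 to 0.037). Each member had 373 counts or more in each library, and each group held 3 libraries. How far counting error or spread between libraries limits the members' precision was not tested.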
